A study of Mus musculus with 25 samples.

Results

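Expression of the genes for the vascular endothelial growth factor (VEGF) ligands Vegfa, Vegfb, Vegfc and Pgf, the neuropilins Nrp1 and Nrp2, the angiopoietins Angpt1 and Angpt2, and the angiopoietin-like protein Angptl4 was followed through drug response and resistance in a mouse melanoma. The genes were taken by symbol, and all 9 were among the 23940 symbols measured. The tumors came from YUMM1.7, a cultured mouse melanoma line driven by mutant Braf, grown in C57BL/6 mice with the host's own vessels, stroma and immune cells. Poly(A) RNA of 25 biopsies in 7 groups was sequenced, and levels are in FPKM, fragments scaled by transcript length and library size. Batch 1 held untreated tumors (Veh, n = 4), tumors regressing under a BRAF inhibitor (Reg, n = 4), residual tumors that persisted under it (Res, n = 5) and tumors resistant to it (Prog, n = 5). Batch 2 held tumors resistant to the inhibitor given with an antibody against PD-L2 (aPDL2_large, n = 2), residual tumors under that combination (aPDL2_small, n = 2) and further tumors resistant to the inhibitor alone (Prog_b2, n = 3). Neither the name of the inhibitor nor doses, sampling days or ages of the mice were stated. The samples are numbered by tumor, and nothing says that they came from separate mice, so p-values measure the spread between these samples.

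VEGF-A is the main growth factor of blood vessel endothelium, acts through the receptor kinases encoded by Kdr and Flt1, and is induced when cells lack oxygen. VEGF-C acts mainly on lymphatic endothelium through the receptor encoded by Flt4, while VEGF-B and the placental growth factor encoded by Pgf bind the Flt1 product, and the neuropilins are co-receptors for VEGF and for class 3 semaphorins. Angiopoietin 1 activates the endothelial receptor kinase encoded by Tek and steadies vessels, and angiopoietin 2, made largely by endothelial cells, mostly opposes it. Angptl4 encodes a secreted inhibitor of lipoprotein lipase, does not act through Tek, and is a known target of both hypoxia and the PPAR nuclear receptors.

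The libraries differed in more than their groups. Between 11081 and 12262 genes per library reached 1 FPKM, no pair was a duplicate, and the depth behind the values is unknown. Keratin genes of skin were high in Veh 1, Veh 3 and Res 1, where Krt14 reached 592, 98.2 and 158 FPKM. Muscle actin (Acta1) was at 132 to 296 FPKM in Res 2 to Res 5 and at 21.3 FPKM in Res 1. The pigment cell genes Dct, Tyr, Tyrp1 and Mlana had group means of at most 0.259 FPKM and were nearly absent. On the same melanocyte list, Pmel had group means of 0.231 to 0.574 FPKM and Mitf of 3.17 to 7.54 FPKM. Sox10 was at 140 FPKM in aPDL2_small 2 and 188 FPKM in aPDL2_large 1 but at most 10.7 FPKM elsewhere. Because each value is an average over a whole biopsy, fewer cells of a type and less RNA per cell cannot be told apart.

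Averaged over the 25 libraries, Vegfa was the most abundant of the 9 genes per transcript length, at 67.8 ± 44.1 FPKM (SD), followed by Nrp1 at 40.4 FPKM, Nrp2 at 36.2 FPKM and Vegfb at 31.1 FPKM. This rank came from Prog and batch 2, since Vegfa averaged below Vegfb, Nrp1 and Nrp2 in each of Veh, Reg and Res. Angptl4 averaged 11.7 FPKM and ran from 1.07 to 46.8 FPKM. The remaining ligands were low, with Vegfc at 6.59 FPKM, Pgf at 4.99 FPKM, Angpt2 at 4.30 FPKM and Angpt1 at 2.62 FPKM.

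**Figure D1:**
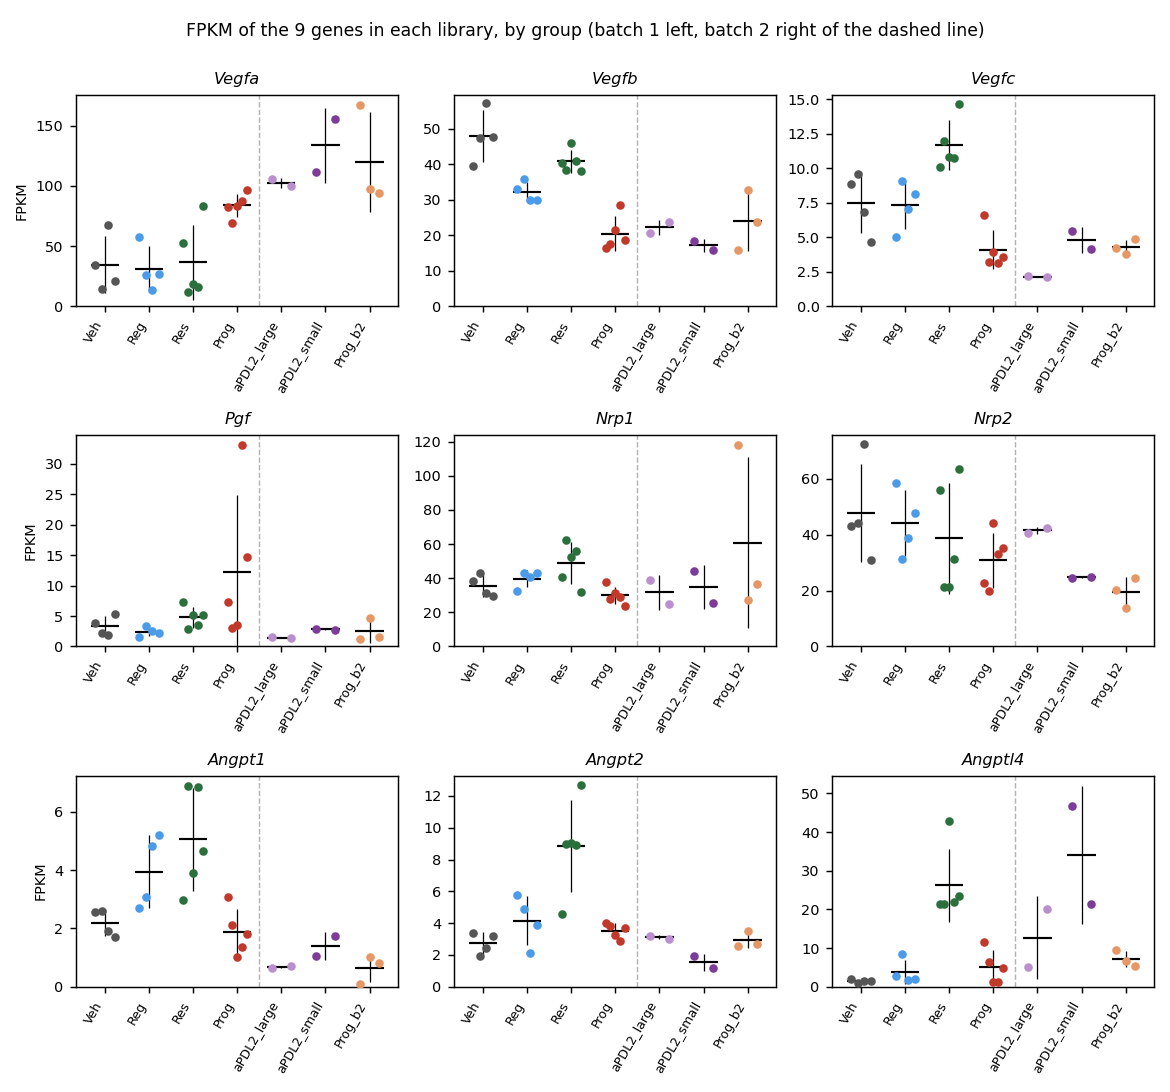
FPKM of the 9 genes in each of the 25 libraries (points), with group means (horizontal bars) and SD (vertical lines, drawn no lower than 0), batch 1 left and batch 2 right of the dashed line. Vegfa sits at 69.2 FPKM or higher in every resistant tumor and in both aPDL2_small tumors, and Vegfb is lower there than in Veh. Angptl4 is at 21.3 to 42.9 FPKM in Res against 1.07 to 1.92 FPKM in Veh.

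The genes called among the 9 differed by comparison. Regressing tumors showed no called change of the 9 genes against Veh, where a call is an adjusted p under 0.05 (limma on log2(FPKM + 1), Benjamini-Hochberg adjustment over all genes tested). The background there was 0.0164% of 12210 genes called, although 1364 genes had an unadjusted p under 0.05, Vegfb and Angpt1 among them. The residual tumors of batch 1, Res, had 4 of the 9 higher than Veh and none lower: Vegfc, Angpt1, Angpt2 and Angptl4. In this comparison 45.5% of all genes were called, 20.4% higher and 25.1% lower. Against Reg, where 36.4% of genes were called, 13.9% higher and 22.5% lower, Res had 3 higher: Vegfc, Angpt2 and Angptl4.

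In Prog the calls were of other genes or in other directions. Prog had Vegfa higher and Vegfb and Vegfc lower than Veh, with 46.3% of all genes called, 25.2% higher and 21.1% lower. Against Reg, with 48.4% of genes called, 24.3% higher and 24.1% lower, Prog had Vegfa and Pgf higher and Vegfb, Vegfc and Angpt1 lower. Against Res, with 72.4% of genes called, 40% higher and 32.4% lower, Prog had Vegfa higher and 6 lower: Vegfb, Vegfc, Nrp1, Angpt1, Angpt2 and Angptl4. Of the 9, 7 being called stands beside a background of nearly the same share. Counted in either direction, the 9 genes were called at about the share of all genes, or below it, in each batch 1 comparison of Res or Prog. These counts therefore do not set the family apart. The median log2 change of the 9 genes was 0.45 for Res against Veh, -0.18 for Prog against Veh and -0.99 for Prog against Res. Over all genes tested these medians were -0.03, 0.01 and 0.08.

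**Figure D2:**
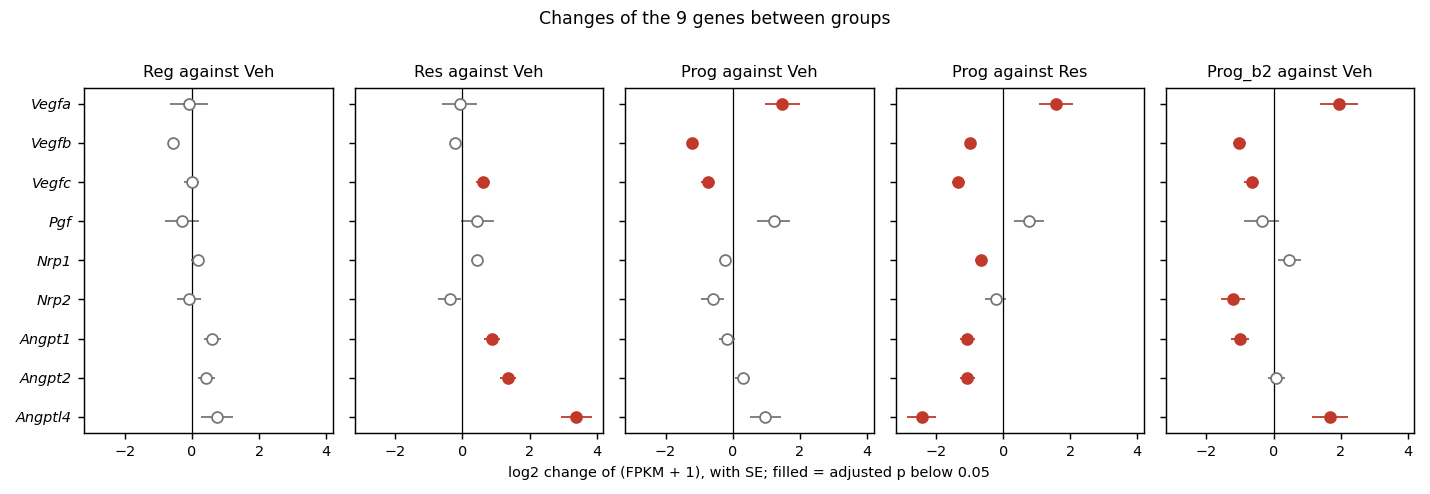
Log2 changes of FPKM + 1 (x axis) of the 9 genes in 5 comparisons, with SE bars; filled points have an adjusted p below 0.05. Angptl4, Angpt2, Angpt1 and Vegfc lie right of 0 in Res against Veh and left of 0 in Prog against Res, while Vegfa lies right of 0 in both comparisons of Prog and in Prog_b2 against Veh.

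Within batch 1, Vegfa had a wide spread in Veh, Reg and Res and a narrower one in Prog. It was at 34.0, 14.5, 67.8 and 21.3 FPKM in Veh, at 57.5, 26.3, 13.5 and 26.5 FPKM in Reg, at 52.4, 11.7, 18.7, 15.7 and 83.7 FPKM in Res, and at 82.5, 69.2, 83.2, 87.5 and 96.5 FPKM in Prog. In batch 2 it was at 105 and 99.5 FPKM in aPDL2_large, 112 and 156 FPKM in aPDL2_small, and 167, 97.4 and 94.2 FPKM in Prog_b2. All 5 Prog libraries lay above all Veh and all Reg libraries, but Res 5 reached into the range of Prog. Prog averaged 83.8 ± 9.88 FPKM and Veh 34.4 ± 23.7 FPKM (SD), a log2 change of 1.48 ± 0.53 (SE, adjusted p = 0.0319). This call is near the threshold, since its adjusted p was 0.0533 with no filter on low genes and 0.114, 0.0811, 0.05003, 0.0528, 0.0512 and 0.0599 without Veh 2, Veh 4, Prog 1, Prog 3, Prog 4 or Prog 5, each left out singly. Against Res the change was 1.57 ± 0.50 (adjusted p = 0.0105), and it was 0.66 (adjusted p = 0.446) where Res 1 alone, the residual tumor with low muscle actin, stood for Res. Against Reg it was 1.58 ± 0.53 (adjusted p = 0.023), and 0.0508 and 0.0866 were the adjusted p-values without Reg 2 or Reg 3, and 0.0710 that with a term for columns that look averaged over a pair of values. In the order of group means, Reg, Veh, Res and Prog overlapped from each to the next, and only the step from Prog to aPDL2_large did not, which also crosses the batches.

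Vegfb, a ligand linked mainly to fatty acid handling and heart vessels, ran the other way. It was at 39.6, 47.3, 57.3 and 47.7 FPKM in Veh, 32.9, 35.8, 29.8 and 29.9 FPKM in Reg, and 40.4, 38.2, 46.0, 40.9 and 38.2 FPKM in Res. In Prog it was at 16.3, 17.5, 21.3, 28.4 and 18.6 FPKM. The 5 Prog libraries were below every other library of batch 1, and Prog averaged 20.4 ± 4.84 FPKM against 48.0 ± 7.26 FPKM in Veh. Vegfb thus fell by 1.21 ± 0.13 on the log2 scale against Veh (adjusted p = 1.16e-05), by 0.65 ± 0.13 against Reg (adjusted p = 0.00138) and by 0.99 ± 0.13 against Res (adjusted p = 5.03e-06). The call against Veh held with each Veh and each Prog library left out in turn. In Res against Reg the groups did not overlap either, with a change of 0.34 ± 0.13 that passed with size factors (adjusted p = 0.0425) but not as tested (adjusted p = 0.0613). The 4 Reg libraries were also below the 4 Veh libraries, with a log2 change of -0.56 ± 0.14 that did not pass the test (adjusted p = 0.357).

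The balance of the ligands shifted accordingly. Vegfa made up 70.4 ± 7.24% of the summed FPKM of Vegfa, Vegfb, Vegfc and Pgf in Prog, against 34.2 ± 13.7% in Veh, 39.9 ± 14.2% in Reg and 34.0 ± 18.2% in Res (SD). The ratio of Vegfa to Vegfb was 4.24 ± 0.882 in Prog, against 0.698 ± 0.398 in Veh. The lowest ratio in Prog was 3.08, and the highest elsewhere in batch 1 was 2.19, in Res 5. In batch 2 the share of Vegfa was 79.9 ± 1.82% in aPDL2_large, 84.0 ± 4.64% in aPDL2_small and 78.3 ± 9.50% in Prog_b2.

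Among the batch 1 means, Vegfc, the lymphatic growth factor, was highest in Res and lowest in Prog. In the residual tumors of aPDL2_small, in batch 2, Vegfc was at 5.46 and 4.12 FPKM. It was at 8.83, 9.60, 6.86 and 4.67 FPKM in Veh, 5.02, 9.06, 7.05 and 8.14 FPKM in Reg, 10.1, 12, 10.8, 10.7 and 14.7 FPKM in Res and 6.60, 3.23, 3.9, 3.16 and 3.58 FPKM in Prog. Every Res library was above every other library of the series, and in Prog only Prog 1 was above the lowest Veh library. Vegfc rose by 0.61 ± 0.21 in Res against Veh (adjusted p = 0.0245), fell by 0.73 ± 0.21 in Prog against Veh (adjusted p = 0.00856) and fell by 1.34 ± 0.19 in Prog against Res (adjusted p = 1.58e-05). The rise in Res did not hold without Veh 3 (adjusted p = 0.0555), Veh 4 (adjusted p = 0.107) or Res 5 (adjusted p = 0.0520), without the 3 libraries high in keratin (adjusted p = 0.0570), or with Res 1 alone (0.43, adjusted p = 0.481). The fall in Prog against Veh had an adjusted p of 0.0790 without the libraries high in keratin. In Res against Reg, Vegfc rose by 0.62 ± 0.21 (adjusted p = 0.0268), with adjusted p-values of 0.108, 0.0515, 0.0511 and 0.0544 without Reg 1, Reg 3, Res 2 or Res 5, and of 0.487 with Res 1 alone.

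Pgf, the placental growth factor, was low and uneven. It lay between 1.54 and 5.37 FPKM in Veh and Reg and between 2.85 and 7.30 FPKM in Res. In Prog it was at 7.23, 2.97, 3.58, 33.0 and 14.7 FPKM, so that Prog 4 and Prog 5 stood far above the rest while Prog 2 and Prog 3 lay within the range of Veh. Prog averaged 12.3 ± 12.5 FPKM and Veh 3.33 ± 1.60 FPKM (SD), a log2 change of 1.22 ± 0.49 that missed the threshold (adjusted p = 0.0507). It passed with a pseudocount of 0.1 (adjusted p = 0.0471) and without Veh 4 (adjusted p = 0.0417), Prog 2 (adjusted p = 0.0154) or Prog 3 (adjusted p = 0.0241), with library weights (adjusted p = 0.0244), in the fit of all 25 libraries (adjusted p = 0.0406) and with the term for averaged columns (adjusted p = 0.0208). Against Res the change of 0.77 ± 0.46 (adjusted p = 0.141) passed without Prog 2 (adjusted p = 0.0378) and with library weights (adjusted p = 0.0403). Against Reg, Pgf was higher in Prog by 1.51 ± 0.49 (adjusted p = 0.0182), but with adjusted p-values of 0.0557 in a fit of these groups alone and 0.107 with a term for the averaged columns.

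The co-receptor Nrp1 was highest in Res and lowest in Prog among the batch 1 means. These ran from 29.9 ± 5.11 FPKM in Prog to 48.7 ± 12.3 FPKM in Res within batch 1, with 35.5 ± 6.26 FPKM in Veh and 39.8 ± 5.04 FPKM in Reg, and the ranges of neighbouring groups in this order overlapped. Nrp1 was lower in Prog than in Res, with a log2 change of -0.66 ± 0.17 (adjusted p = 0.00222), a call that was lost with Res 1 alone (-0.45, adjusted p = 0.131). In Res against Veh the log2 change of 0.42 ± 0.18 did not pass (adjusted p = 0.0629), though it did without Veh 2 (adjusted p = 0.0395) or Res 5 (adjusted p = 0.00807) and with library weights (0.54, adjusted p = 0.00526). In Prog against Reg it was -0.41 (adjusted p = 0.0698) and passed without Reg 1 (adjusted p = 0.0394) or Prog 1 (adjusted p = 0.0384), in a fit of these groups alone (adjusted p = 0.0342) and with library weights (adjusted p = 0.00258). Library weights also gave calls against Veh in Prog (-0.40, adjusted p = 0.0243) and against Reg in Res (0.39, adjusted p = 0.0293). Prog_b2 1, with 118 FPKM, held the highest Nrp1 level of the series, against 27.3 and 36.6 FPKM in the other Prog_b2 libraries.

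Nrp2, the neuropilin that also binds VEGF-C, showed no called difference within batch 1 as tested, though library weights gave it a lower level in Res than in Veh (-0.69, adjusted p = 0.0385) and than in Reg (-0.73, adjusted p = 0.0266). It ranged from 31.1 to 72.6 FPKM in Veh, 31.2 to 58.4 FPKM in Reg, 21.2 to 63.3 FPKM in Res and 19.7 to 44.0 FPKM in Prog. Groups overlapped throughout, and the log2 change of Prog against Veh was -0.60 ± 0.34 (adjusted p = 0.157). Within batch 1 the ratio of Nrp1 to Nrp2 spread widest in Res, where it ran from 0.504 in Res 5 to 2.92 in Res 2.

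Among the batch 1 means, both angiopoietins were highest in Res. The residual tumors of aPDL2_small averaged 1.54 FPKM of Angpt2 and 1.40 FPKM of Angpt1, against 2.74 and 2.20 FPKM in Veh. Batch and group cannot be told apart there. Angpt2, the antagonist released by endothelial cells, was at 3.40, 1.92, 2.43 and 3.22 FPKM in Veh, 5.75, 4.86, 2.14 and 3.87 FPKM in Reg, 4.57, 8.98, 9.07, 8.93 and 12.7 FPKM in Res and 4.00, 3.84, 3.26, 2.88 and 3.67 FPKM in Prog. Res 2 to Res 5 stood above all other libraries of the series, while Res 1 lay within the range of Reg. Angpt2 was higher in Res than in Veh by 1.36 ± 0.23 (adjusted p = 0.000257) and higher than in Reg by 0.93 ± 0.23 (adjusted p = 0.0058). It fell in Prog against Res by 1.07 ± 0.22 (adjusted p = 0.000411). With Res 1 alone for Res these were 0.59 (adjusted p = 0.255), 0.17 (adjusted p = 0.796) and -0.30 (adjusted p = 0.464).

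Angpt1, the activating ligand of Tek, was at 2.58, 2.61, 1.91 and 1.7 FPKM in Veh, 2.70, 3.09, 4.81 and 5.21 FPKM in Reg, 2.98, 6.91, 3.89, 6.86 and 4.66 FPKM in Res and 3.09, 2.12, 1.02, 1.36 and 1.81 FPKM in Prog. All Reg and all Res libraries exceeded all Veh libraries. The log2 change was 0.88 ± 0.24 in Res against Veh (adjusted p = 0.00637), and 0.61 ± 0.25 in Reg against Veh, which did not pass (adjusted p = 0.419). Prog was lower than Res, with a change of -1.07 ± 0.22 (adjusted p = 0.000451), and lower than Reg, with a change of -0.79 ± 0.24 (adjusted p = 0.0121). With Res 1 alone the changes were 0.33 against Veh (adjusted p = 0.581) and -0.51 for Prog against Res (adjusted p = 0.251), and with a term for the averaged columns the change against Reg had an adjusted p of 0.0593. The ratio of Angpt2 to Angpt1 averaged 1.84 ± 0.652 in Res and 2.09 ± 0.70 in Prog, against 1.30 ± 0.473 in Veh, with overlapping ranges.

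Markers of several cell types moved with these genes in Res against Veh. Of 15 endothelial markers 13 were called higher and none lower, among them the junction protein gene Esam (1.30 ± 0.23, adjusted p = 0.000287) and the endothelial transcription factor gene Erg (0.94 ± 0.16, adjusted p = 0.000282), and their summed level was 209 to 347 FPKM in Res against 127 to 189 FPKM in Veh. Of 12 macrophage markers 10 were higher and 1 lower (summed 1624 to 3744 FPKM against 294 to 1396 FPKM), and of 8 neutrophil markers 7 were higher (568 to 2028 FPKM against 62.5 to 314 FPKM). Of 10 fibroblast markers 7 were higher (5461 to 8503 FPKM against 2416 to 3022 FPKM), of 8 pericyte markers 3 (196 to 243 FPKM against 128 to 142 FPKM), and of 5 erythroid markers 4 (18.8 to 3360 FPKM against 6.90 to 134 FPKM). All 10 tested skeletal muscle markers were higher, with sums of 81.5 to 1078 FPKM in Res and 6.13 to 118 FPKM in Veh. No marker on these 7 lists was below 0.1 FPKM in every Res or every Veh library. Of 3 tested lymphatic endothelial markers none was called, and a further one, Ccl21a, stayed below 0.1 FPKM in both groups. Without Res 1, Res 3 or Res 5, 1 lymphatic marker was called higher. Of 4 tested adipocyte markers 2 were higher (31.8 to 130 FPKM against 8.76 to 146 FPKM), and of 7 tested keratinocyte markers none was called. The 2 tested melanocyte markers were higher (8.01 to 21.6 FPKM against 4.61 to 6.45 FPKM). In a fit of all 25 libraries or of these groups alone, 1 adipocyte and 1 melanocyte marker were higher. With Res 1 alone none of the endothelial and muscle markers was called, and 2 macrophage and 1 erythroid markers were higher. Without the libraries high in keratin 6 macrophage markers were higher. Their part in the levels of Angpt1, Angpt2 and Vegfc was not tested.

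Angptl4 had the largest change of the 9 genes. It was at 1.92, 1.07, 1.49 and 1.53 FPKM in Veh, 2.76, 8.50, 1.7 and 2.12 FPKM in Reg, 21.3, 21.5, 42.9, 22 and 23.4 FPKM in Res and 11.7, 6.32, 1.18, 1.27 and 4.85 FPKM in Prog. Every Res library was above every other library of batch 1, and Prog 3 and Prog 4 were within the range of Veh. Res averaged 26.2 ± 9.38 FPKM and Veh 1.5 ± 0.348 FPKM (SD), a log2 change of 3.40 ± 0.46 (adjusted p = 3.01e-05), or 10.6-fold on the scale of FPKM + 1. This was 2.65 ± 0.46 against Reg (adjusted p = 0.000421). Prog was lower than Res, with a change of -2.43 ± 0.44 (adjusted p = 0.000119), and did not differ past the threshold from Veh (0.97 ± 0.46, adjusted p = 0.0966), although it did without Prog 3 (adjusted p = 0.0355) or Prog 4 (adjusted p = 0.0360). Res 1 alone still gave 3.17 against Veh (adjusted p = 0.0261) and a change of -2.20 for Prog against it (adjusted p = 0.0483), but 2.42 against Reg with an adjusted p of 0.0855.

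In batch 1, the adipocyte sum was 31.8 to 130 FPKM in Res. Within Veh it was 146 FPKM in Veh 3 and 8.76 to 12.5 FPKM in the others. Of 4 tested adipocyte markers, 2 were called higher in Res than in Veh. Res 3, with the sum of 130 FPKM, had the highest Angptl4 of batch 1 at 42.9 FPKM, and Veh 3 had 1.49 FPKM. Res 1, whose muscle sum of 81.5 FPKM lay within the range of Veh, had 21.3 FPKM of Angptl4. Muscle sums were 457 to 1078 FPKM in the other Res libraries, and the part of muscle was not tested. In batch 2 the 3 libraries with the most adipocyte RNA had the most Angptl4. The adipocyte sum was 8.35 and 458 FPKM in aPDL2_large, 838 and 1039 FPKM in aPDL2_small and 68.3, 34.1 and 8.98 FPKM in Prog_b2. Angptl4 was at 5.10 and 20.2 FPKM in aPDL2_large, 46.8 and 21.4 FPKM in aPDL2_small and 9.50, 6.69 and 5.27 FPKM in Prog_b2. Adipocytes are known to make Angptl4, and their part in these values was not tested. Of 9 tested PPAR target genes, 5 were higher in Res than in Veh and none lower, among them the fatty acid importer of mitochondria Cpt1a (0.94 ± 0.16, adjusted p = 0.000265), the lipid droplet gene Plin2 (1.29 ± 0.25, adjusted p = 0.000705) and Pdk4 (1.76 ± 0.38, adjusted p = 0.00156). This count was 2 with Res 1 alone. In Prog, Cpt1a was lower than in Veh (-0.83 ± 0.16, adjusted p = 0.000816).

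**Figure D3:**
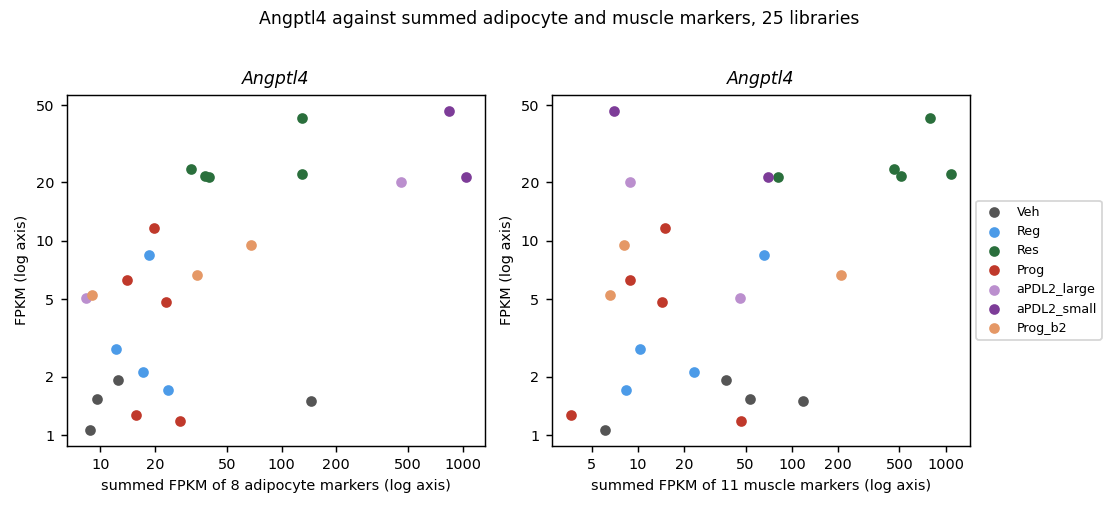
Angptl4 (y axis, FPKM, log axis) against the summed FPKM of 8 adipocyte markers (left) and 11 skeletal muscle markers (right), log axes, in 25 libraries coloured by group. The 5 Res libraries lie at 21.3 to 42.9 FPKM at adipocyte sums of 31.8 to 130 FPKM. Veh 3 lies at 1.49 FPKM at a sum of 146 FPKM, and the other Veh libraries have sums of 8.76 to 12.5 FPKM. Both aPDL2_small libraries lie at adipocyte sums of 838 and 1039 FPKM.

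The spread of Vegfa before resistance ran with genes of the hypoxia response. Libraries Veh 3, Reg 1, Res 1 and Res 5, the highest in Vegfa of their groups, had summed hypoxia gene levels of 2159, 1853, 1599 and 1726 FPKM over 18 genes that did not include Vegfa or Angptl4. The other libraries outside Prog lay between 744 and 1442 FPKM. Over the 13 batch 1 libraries outside Prog, log2 Vegfa and the log2 sum had a Pearson r of 0.925 (permutation p = 8e-05, adjusted over the 9 genes 0.00072) and a Spearman rho of 0.863 (permutation p = 0.0002, adjusted 0.0018), two-sided with 100000 resamples. Without Veh 3 and Reg 1, the farthest from the median sum, r was 0.900, and with group means removed it was 0.948. Nrp2 ran the same way, with r of 0.850 (permutation p = 0.00016, adjusted 0.00072) and rho of 0.846 (permutation p = 0.00052, adjusted 0.00234), 0.775 without those libraries and 0.865 within groups. Nrp1 ran against the sum, with r of -0.780 (permutation p = 0.00112, adjusted 0.00336) and rho of -0.797 (permutation p = 0.00184, adjusted 0.00552), -0.705 without those libraries and -0.826 within groups. For the other 6 genes the adjusted p of r was 0.139 or higher. This set of libraries was chosen after the values were seen, because Prog was mostly higher in both measures. The permutations also shuffled libraries across Veh, Reg and Res, so the p-values are descriptive. How many of all genes ran as closely with the sum was not computed, so the relation is not shown to be particular to these genes. The ranges overlapped, with sums of 2065 FPKM in Prog 2 and 2159 FPKM in Veh 3. Vegfa was at 69.2 FPKM in Prog 2 and 83.7 FPKM in Res 5.

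In Prog the hypoxia genes were higher along with Vegfa, while Nrp2 was not. Of the 18 hypoxia genes 16 were called higher in Prog than in Veh and none lower, with a median log2 change of 1.33, and their sum was 2065 to 3713 FPKM in Prog against 873 to 2159 FPKM in Veh. The count was 9 without Veh 2 and 10 without Prog 4. Among them were the stress gene Ndrg1 (2.49 ± 0.35, adjusted p = 7.09e-05), the hexokinase gene Hk2 (1.43 ± 0.30, adjusted p = 0.00128) and the glucose transporter gene Slc2a1 (2.11 ± 0.50, adjusted p = 0.00299). In Res against Veh 3 of 18 were higher, the kinases Pfkfb3 and Pfkfb4 and Ndrg1, and the list's median was -0.13. With library weights 3 of the list were called lower there, and with a block for replicate numbers 2. None was higher with Res 1 alone, and 1 was lower without Veh 2, Res 1 or Res 5. Nrp2 in Prog stayed at 19.7 to 44.0 FPKM, below the 55.9 to 72.6 FPKM of the 4 earlier libraries with high sums. In batch 2 the sums were 2036 to 3188 FPKM in Prog_b2, 2391 and 2771 FPKM in aPDL2_large and 2238 and 3884 FPKM in aPDL2_small. High sums and high Vegfa, at 112 and 156 FPKM, were thus also found in the residual tumors of aPDL2_small. In Prog_b2 against Veh, 5 of 18 hypoxia genes were called higher and none lower, and batch and group cannot be told apart there.

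**Figure D4:**
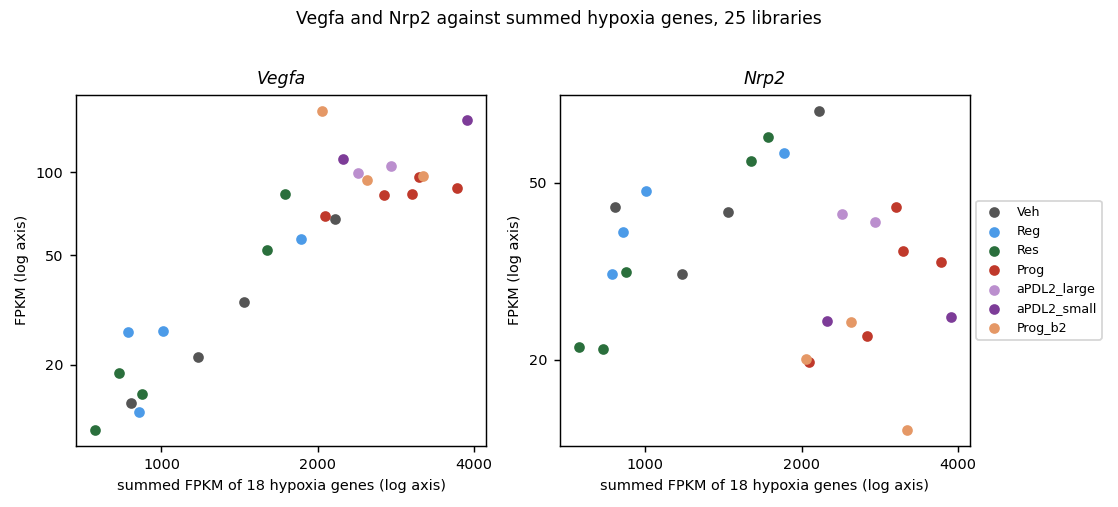
Vegfa (left) and Nrp2 (right) in FPKM against the summed FPKM of 18 hypoxia genes, log axes, in 25 libraries coloured by group. Vegfa climbs with the sum through Veh, Reg and Res to Prog. In batch 2 no steady climb is seen. Prog_b2 1 has 167 FPKM at the lowest sum there, 2036 FPKM, and Prog_b2 2 has 97.4 FPKM at 3188 FPKM. At the highest sum, 3884 FPKM, aPDL2_small 2 has 156 FPKM. Nrp2 climbs to 72.6 FPKM in Veh 3 and lies at 19.7 to 44.0 FPKM in Prog at sums of 2065 to 3713 FPKM.

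Promoter sequences are shown for the pair of genes that ran with the hypoxia sum, Vegfa and Nrp2, and for Vegfb, the ligand that fell while Vegfa rose. The table of promoters, from RefSeq on GRCm38.p6, holds 8 windows for 6 of the 9 genes, each from 250 bases before to 50 after a gene start, and none for Angpt1, Angpt2 and Angptl4. The windows were searched on both strands for ACGTG and GCGTG, the core letters that hypoxia-inducible factors bind, and for TGACTCA, the letters of AP-1. CACGT and CACGC are the first and the second of these read on the other strand, CACGTG counts as ACGTG on both strands, and matches may overlap. They are in capitals, 5′ to 3′ on the gene's strand.
Vegfa, first start, chr17:46032328-46032627, minus strand: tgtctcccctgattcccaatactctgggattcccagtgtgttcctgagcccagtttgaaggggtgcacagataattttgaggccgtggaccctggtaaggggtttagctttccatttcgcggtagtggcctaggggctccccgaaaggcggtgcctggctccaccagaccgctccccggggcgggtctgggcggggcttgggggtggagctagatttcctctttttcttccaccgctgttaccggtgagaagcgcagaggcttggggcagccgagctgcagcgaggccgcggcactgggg
Vegfa, second start, chr17:46025114-46025413, minus strand: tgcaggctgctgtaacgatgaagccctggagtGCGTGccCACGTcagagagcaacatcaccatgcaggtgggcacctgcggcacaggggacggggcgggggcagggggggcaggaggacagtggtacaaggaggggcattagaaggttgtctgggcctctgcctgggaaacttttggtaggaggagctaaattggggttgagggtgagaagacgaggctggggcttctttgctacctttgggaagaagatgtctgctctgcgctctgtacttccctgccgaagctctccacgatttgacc
Vegfb, chr19:6987602-6987901, minus strand: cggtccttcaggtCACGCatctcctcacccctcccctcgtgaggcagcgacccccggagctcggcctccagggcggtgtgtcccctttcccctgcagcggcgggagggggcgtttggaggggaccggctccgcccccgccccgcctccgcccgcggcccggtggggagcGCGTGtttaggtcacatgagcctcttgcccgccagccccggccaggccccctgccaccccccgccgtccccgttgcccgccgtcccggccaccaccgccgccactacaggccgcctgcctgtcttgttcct
Nrp2, chr1:62703067-62703366, plus strand: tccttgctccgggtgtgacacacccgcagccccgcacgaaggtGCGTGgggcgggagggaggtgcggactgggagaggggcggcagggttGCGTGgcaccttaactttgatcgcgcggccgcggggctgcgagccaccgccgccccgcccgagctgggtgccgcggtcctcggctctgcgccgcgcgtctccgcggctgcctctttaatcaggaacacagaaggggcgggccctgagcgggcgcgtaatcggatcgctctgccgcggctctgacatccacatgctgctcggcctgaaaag
The first Vegfa window holds none of these letters, and the second holds 1 ACGTG and 1 GCGTG 2 bases apart. The second start lies downstream of the first, so its window lies inside the gene as read from the first start. The windows of Vegfb and Nrp2 hold 2 GCGTG each. Of those not shown, the windows of Nrp1, which ran against the hypoxia sum, and of the first Pgf start hold 1 GCGTG each. Those of Vegfc and the second Pgf start hold none of these letters. TGACTCA is in none of the 8 windows. Of 32851 promoters in the table, 19.6% hold ACGTG, 32.4% GCGTG, 43.8% either of them and 5.20% TGACTCA. A match describes letters in a window and is no evidence of binding.

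The receptors did not move together. Flt1, the receptor for VEGF-A, VEGF-B and placental growth factor, was at 33.4, 21.2, 39.7, 45.4 and 35.0 FPKM in Prog and at 6.71, 4.00, 5.00 and 7.88 FPKM in Veh. The groups did not overlap, and the log2 change was 2.37 ± 0.34 (adjusted p = 7.47e-05). Values per gene do not separate the membrane-bound from the soluble form of this receptor. Kdr, the main signalling receptor for VEGF-A, was lower in Prog at 1.35 ± 0.446 FPKM than in Veh at 3.45 ± 1.7 FPKM, with a change of -0.85 ± 0.24 (adjusted p = 0.00915). In Res against Veh it was the 1 receptor called higher, by 0.65 ± 0.24 (adjusted p = 0.0365), and no receptor was called higher there without Veh 3, Veh 4, Res 1, Res 2 or Res 4, each left out singly, without the libraries high in keratin, with no filter, with library weights, in a fit of these groups alone, or with Res 1 alone. Flt4 was at 0.913 ± 0.631 FPKM in Prog, 1.94 ± 0.772 FPKM in Res and 1.46 ± 0.750 FPKM in Veh and was called in neither comparison with Veh.

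Of the angiopoietin receptor Tek, the related Tie1 and the endothelial phosphatase gene Ptprb, all 3 were higher in Res than in Veh. Tie1 rose by 1.15 ± 0.23 (adjusted p = 0.000912), Ptprb by 0.97 ± 0.22 (adjusted p = 0.00228) and Tek by 1.01 ± 0.31 (adjusted p = 0.0138). In Prog all 3 were lower than in Res, Tie1 by a log2 change of -2.02 ± 0.22 (adjusted p = 9.78e-07), and 1 of the 3, Tie1, was lower than in Veh, with -0.87 ± 0.23 (adjusted p = 0.00642). With Res 1 alone for Res none of the 3 was called against Veh, and 1 was lower in Prog than in Res 1. In Prog the endothelial markers split. Of 15, 10 were lower than in Veh, among them Esam (-1.20 ± 0.23, adjusted p = 0.000651), and 2 were higher, Flt1 and the cadherin gene Cdh5 (2.81 ± 0.28, adjusted p = 3.98e-06), which was at 97.6 ± 16.3 FPKM in Prog against 13.8 ± 5.96 FPKM in Veh. The endothelial list shares Flt1, Kdr, Tek and Tie1 with the receptors.

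**Figure D5:**
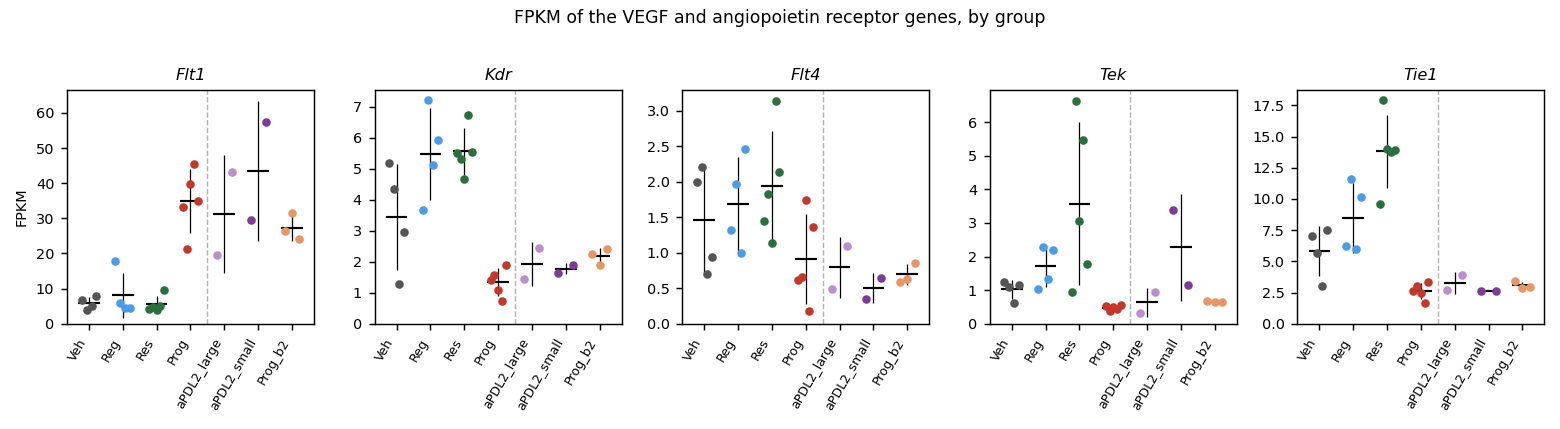
FPKM of the VEGF receptor genes Flt1, Kdr and Flt4 and of Tek and Tie1 in 25 libraries, with group means and SD, batch 1 left and batch 2 right of the dashed line. Flt1 is at 21.2 to 45.4 FPKM in Prog against 4.00 to 7.88 FPKM in Veh, whereas Tie1 peaks in Res and averages 2.63 FPKM in Prog.

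Other genes of the family and the partners of the neuropilins were also mixed. VEGF-D, listed as Figf and acting on lymphatic endothelium in the mouse through the Flt4 product, was at 37.3, 59.2, 34.8, 39.6 and 20.3 FPKM in Res against 11.8, 13.7, 16.7 and 7.87 FPKM in Veh. The groups did not overlap, and Figf rose by 1.51 ± 0.26 (adjusted p = 0.000268) and fell by 2.00 ± 0.25 in Prog against Res (adjusted p = 3.16e-06). Of 6 tested genes on this list, 4 were higher and 1 lower in Res than in Veh. These counts were 1 and 0 with Res 1 alone, and without the libraries high in keratin none was lower. Angptl7 was higher by 2.29 ± 0.55 (adjusted p = 0.00302), Gpihbp1, the capillary anchor of lipoprotein lipase, by 1.2 ± 0.32 (adjusted p = 0.00638), and Angptl2 was lower by a change of -0.86 ± 0.22 (adjusted p = 0.00472). Of 11 tested plexins and class 3 semaphorins, 4 were higher and 3 lower in Res than in Veh, and likewise 4 and 3 in Prog than in Veh. In Res these counts were 2 and 1 with Res 1 alone, and 1 was lower without Veh 1, without Res 2 or without the libraries high in keratin. Sema3a, a repellent cue that signals through Nrp1, had a change of -1.58 ± 0.25 in Res (adjusted p = 0.000149) and of 1.02 ± 0.25 in Prog (adjusted p = 0.0042) against Veh. Plxna4, a signalling partner of Nrp1, was at 22 FPKM in Prog and 4.36 FPKM in Veh, a change of 2.06 ± 0.35 (adjusted p = 0.000315). Of 8 genes of endothelial tip cells, a list that holds Angpt2, 3 were higher and 2 lower in Res than in Veh, and 3 higher and 1 lower in Prog. In Res the counts were 0 and 1 with Res 1 alone, and 1 was lower without Veh 4, while 2 were lower in Prog without Veh 1 or Prog 1. The tip cell marker Esm1 was lower in Res (-2.15 ± 0.37, adjusted p = 0.000244) and the Notch ligand gene Dll4 higher in Prog (2.29 ± 0.23, adjusted p = 4.3e-06). Sema3g was higher than in Veh in both Res (2.16 ± 0.28, adjusted p = 1.61e-05) and Prog (1.55 ± 0.28, adjusted p = 0.000426).

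The resistant tumors of batch 2 were set against Veh in a fit of all 25 libraries, in which batch and group cannot be told apart. Vegfa (1.95 ± 0.56, adjusted p = 0.0193) and Angptl4 (1.68 ± 0.54, adjusted p = 0.0341) were higher in Prog_b2, and Vegfb (-1.01 ± 0.19, adjusted p = 0.00155), Vegfc (-0.65 ± 0.22, adjusted p = 0.0424), Nrp2 (-1.22 ± 0.36, adjusted p = 0.0223) and Angpt1 (-1.0 ± 0.27, adjusted p = 0.0148) were lower. That is 6 of 9, where 19.6% of all genes were called, 8.84% higher and 10.7% lower. The directions of Vegfa, Vegfb and Vegfc were those of Prog, which shares the Veh libraries. Without Prog_b2 1 the adjusted p of Vegfb alone stayed under the threshold, while Vegfa had 0.108, Angptl4 0.147, Vegfc 0.126, Nrp2 0.0705 and Angpt1 0.122. A fit of these groups alone called 1 of the 9, Angptl4, and 525 of 11820 genes in all. Vegfb also kept its call with each other Veh or Prog_b2 library left out. Angptl4 lost its call without any 1 Veh library, with adjusted p-values of 0.0511 to 0.0778. Vegfa had 0.0656 without Veh 2, Vegfc 0.108, 0.125, 0.0559 and 0.103 without Veh 1, Veh 2, Veh 3 or Prog_b2 2, and Nrp2 0.0640 and 0.0811 without Veh 3 or Prog_b2 2.

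Between the batches, none of the 9 genes was called in Prog_b2 against Prog, where 8.94% of all genes were, 2.88% higher and 6.06% lower, and 3098 genes had an unadjusted p under 0.05. Angpt1 was nearest, with 0.637 ± 0.479 FPKM in Prog_b2 and 1.88 ± 0.798 FPKM in Prog (log2 change -0.82 ± 0.26, adjusted p = 0.0538), followed by Pgf, with 2.51 ± 1.88 FPKM in Prog_b2 and 12.3 ± 12.5 FPKM in Prog (-1.57 ± 0.50, adjusted p = 0.0548). With a pseudocount of 0.1 Angpt1 passed at an adjusted p of 0.0222 and Pgf at 0.0442. Pgf also passed without Prog 2 (0.0277), Prog 3 (0.0334) or Prog_b2 2 (0.0396), Angpt1 without Prog 3 (0.0401) or Prog_b2 3 (0.0463), and Nrp1 without Prog_b2 2 (0.0471).

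With anti-PD-L2, no gene of the series passed the test in batch 2, so that 0% of 11913 genes were called in each comparison. At an unadjusted p under 0.05 there were 1399 genes in aPDL2_small against Prog_b2, 165 in aPDL2_large against Prog_b2 and 946 in aPDL2_large against aPDL2_small. Of the 9 genes these were Angptl4 and Angpt2 in the first, Nrp2 and Vegfc in the second and Vegfc, Nrp2 and Angpt2 in the third comparison. Angpt1 averaged under 1 FPKM in this batch and was not tested, so 8 of the 9 genes were. Angptl4, at 46.8 and 21.4 FPKM in aPDL2_small against 9.50, 6.69 and 5.27 FPKM in Prog_b2, had a log2 change of 2.04 ± 0.58 (adjusted p = 0.303). Nrp2 was at 40.7 and 42.4 FPKM in aPDL2_large against 20.1, 13.9 and 24.3 FPKM in Prog_b2 (1.09 ± 0.24, adjusted p = 1). Vegfc was at 2.15 and 2.13 FPKM in aPDL2_large, the lowest of the series, against 5.46 and 4.12 FPKM in aPDL2_small (-0.87 ± 0.22, adjusted p = 0.544). These groups did not overlap, but with 2 tumors in a group the precision is low and separate ranges say little. Between aPDL2_large and aPDL2_small all of the 9 genes but Nrp1 had separate ranges. The share of all genes with separate ranges was not counted.

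The contrast of resistant with residual tumors was also compared between the treatments, as aPDL2_large minus aPDL2_small less Prog minus Res, in the fit of all 25 libraries. It differed for Vegfb and Angpt2, 2 of 9 genes, where 15% of all genes were called, 6.2% higher and 8.81% lower. Angpt2 was at 3.21 and 3.03 FPKM in aPDL2_large against 1.92 and 1.16 FPKM in aPDL2_small, while Prog averaged 3.53 ± 0.455 FPKM against 8.85 ± 2.88 FPKM in Res. The difference of the log2 changes was 1.78 ± 0.39 (adjusted p = 0.00822). Vegfb was at 20.7 and 23.6 FPKM in aPDL2_large against 18.3 and 15.9 FPKM in aPDL2_small, where Prog had 20.4 ± 4.84 FPKM against 40.8 ± 3.21 FPKM in Res, and the difference was 1.34 ± 0.29 (adjusted p = 0.00799). Both calls held with each library of these 4 groups left out in turn. Each contrast lies within 1 batch, but the contrasts come from different batches, so anti-PD-L2 and batch cannot be told apart. The Vegfa difference of -1.93 ± 0.86 did not pass (adjusted p = 0.127), except without Res 5 (-2.32, adjusted p = 0.0374) or with library weights (-2.61, adjusted p = 0.0495). Residual tumors of the batches also differed in their markers, with muscle sums of 7.03 and 70.4 FPKM in aPDL2_small against 81.5 to 1078 FPKM in Res, and endothelial sums of 149 and 168 FPKM against 209 to 347 FPKM, whose part in the difference was not tested.

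The genes most like each of the 9 over the 18 libraries of batch 1 were found by Pearson correlation of log2(FPKM + 1) among 11523 genes. These libraries fall into 4 groups, so any gene that differs between the groups scores high, and the values are descriptions. Nearest to Vegfa were the cytokine gene Il11 (r = 0.964), the matrix gene Spp1 (0.960) and the EGF receptor ligand Ereg (0.958). Vegfb had Fuz (0.960), Acyp1 (0.945) and Sh3bp5l (0.944), and Vegfc had the kinase gene Prkce (0.942), Runx1t1 (0.933) and Zfp949 (0.918). Pgf had lower values, with Rabep2 (0.860), Ubn2 (0.832) and Mcpt8 (0.790), and the Spearman rho of Pgf with Rabep2 was 0.703. Nearest to Nrp1 were Terf2ip (0.936), the macrophage lectin gene Clec10a (0.933) and Gpr155 (0.930), and nearest to Nrp2 were Flrt2 (0.919), Vezf1 (0.851) and Anxa1 (0.845). Angpt1 was nearest to Vgll3 (0.932), Heg1 (0.920) and Pde8a (0.914), Angpt2 to Dtnbp1 (0.896), the endothelin receptor gene Ednrb (0.896) and the endothelin gene Edn1 (0.887), and Angptl4 to Necap2 (0.921), Hist1h2bc (0.918) and Sema6b (0.915).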

How the data were processed

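The authors' deposited FPKM table of 23940 gene symbols and 25 libraries was used as given. Per the labels' protocols, mirVana-extracted RNA was enriched for poly(A) tails and turned into TruSeq libraries that do not keep the strand, so a gene and an antisense partner cannot be told apart. Per the submitters' processing notes, the build was mm9 and the tools were Cuffnorm, Cuffdiff, TopHat and TopHat2, with versions not given in the sources used here. No counts were used here, so depth and counting error are unknown. In 9 columns of batch 1 over 20% of values carry 7 digits, as averages of a pair would (called averaged columns here), and 16 hold single values. Column sums of FPKM ran from 496435 to 2065750 and median-of-ratios size factors from 0.954 to 1.04.

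The scale of the tests was log2(FPKM + 1). Group means were fitted by limma 3.58.1 (R 4.3.3) with an intensity trend of the variance. Genes with a mean of at least 1 FPKM over the fit were tested, two-sided, with Benjamini-Hochberg adjustment over all of them and a threshold of 0.05. Fold changes on this scale understate those of low genes. Comparisons within batch 1 used its 18 libraries, those within batch 2 its 7, and the rest all 25. Alternatives were a pseudocount of 0.1, no filter, library weights, size factors, a block for replicate numbers and other sets of libraries. A term for the 9 averaged columns was also used, and each library of the compared groups was left out in turn. Taking Res 1 alone for Res was chosen after seeing the data. The 9 genes, the 18 lists and the tests were chosen with earlier results of these data known. Named list genes are at most 4 per list and comparison with the smallest adjusted p, and genes of likeness are the 3 highest per gene, and Sema3a in Prog, the marker checks and Ccl21a were named outside this rule. Same-numbered libraries of batch 1 had a mean correlation of deviations of -0.0019 (25 pairs, -0.517 to 0.374), so the numbers were not taken to pair tumors. The limma step was tested on simulated data. The rest used scipy 1.17.1, pandas 2.3.3, matplotlib 3.10.9 and numpy 2.4.6 under Python 3.11.15.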

Additional observations from a re-analysis of the deposited data

Results flagged for a closer look

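Within groups of 4 and 5 tumors, 36 sets of values were tested for a library far from the others, and chance flags about 1 set in 20. Vegfc was at 6.60 FPKM in Prog 1, with 3.16 to 3.9 FPKM in the other Prog tumors. Angptl4 was at 8.50 FPKM in Reg 2, with 1.7 to 2.76 FPKM in the other Reg tumors, and at 42.9 FPKM in Res 3, with 21.3 to 23.4 FPKM in the other Res tumors.

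The contrast of resistant with residual tumors differed between tumors also given anti-PD-L2 and tumors given the inhibitor alone for 2 of the genes, by a test of the difference itself (limma, Benjamini-Hochberg adjustment). For Vegfb the difference of log2 changes was 1.34 ± 0.29 (adjusted p = 0.00799), and for Angpt2 it was 1.78 ± 0.39 (adjusted p = 0.00822). The groups with anti-PD-L2 hold 2 tumors each. They are of batch 2 and the groups set against them of batch 1, so anti-PD-L2 and batch cannot be told apart.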

How the results depend on the processing

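Of 30 called changes of the 9 genes, none changed sign under any setting or with any library of the compared groups left out. Of their values, 42 of 274 under other settings and 32 of 275 with a library left out missed the threshold. Of the uncalled changes, 21 of 614 and 17 of 584 values passed it. Causes were not tested beyond what each setting itself removes.

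The number of the 9 genes called moved by over 1.5 times in these cases. With Res 1 alone the number fell in all comparisons with Res, for the 9 genes and over all genes, and 1 library then stands for Res. With library weights it was 6 for Prog against Veh (3 as reported), beside 7415 of all genes (5658). It was 6 for Res against Reg (3 as reported), beside 6638 of all genes (4443). A fit of those groups alone gave 5 for Res against Reg, beside 3288 of all genes. A term for the averaged columns gave 2 for Prog against Reg (5), beside 5093 of all genes (5914). It gave 3 for Prog_b2 against Veh (6), beside 1371 of all genes (2389). For Prog_b2 against Veh it was 1 in a fit of those groups alone, beside 525 of all genes. It was 2 without the libraries high in keratin, beside 1292 of all genes. With a library left out it was 1 to 6, beside 912 to 2674 of all genes. Prog_b2 against Prog (0) gave 2 with a pseudocount of 0.1, beside 1177 of all genes (1090). With a library left out it gave 0 to 2, beside 451 to 1905 of all genes. With the replicate block, Prog_b2 against Veh gave 0 genes of the 9 and 1 of all genes (2389 without it), and Prog_b2 against Prog 49 of all genes (1090 without it). Elsewhere the block moved no count of the 9 past 1.5 times, although Vegfc lost its call in Res against Veh (0.58, adjusted p = 0.0505) and in Res against Reg (0.59, adjusted p = 0.0544), Nrp1 gained one in Res against Veh (0.53, adjusted p = 0.0146), and no VEGF receptor gene was called higher in Res against Veh (1 as reported); 4 of 18 libraries of batch 1 and 1 of 7 of batch 2 correlated best with their own number.

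Uncalled log2 changes turned sign as follows. Without the libraries high in keratin, Reg against Veh gave Vegfa 0.60, Vegfc 0.075 and Nrp2 0.21, Res against Veh gave Vegfa 0.39 and Res against Reg gave Vegfa -0.21. With library weights, Vegfa was 0.12 and Nrp2 0.038 in Reg against Veh, Vegfa -0.57 in Res against Reg, Nrp2 0.23 in Prog against Res and Vegfb 0.10 in aPDL2_large against Prog_b2. With the term for mean columns, Reg against Veh gave Vegfa 0.087, Pgf 0.34 and Nrp1 -0.041, Res against Reg Vegfa -0.13, Prog_b2 against Veh Pgf 0.27 and Prog_b2 against Prog Vegfc -0.0021. With the block, Vegfa was -0.21 in Res against Reg and -0.25 in Prog_b2 against Prog, and Angpt2 -0.050 in Prog_b2 against Veh. With Res 1 alone, Vegfa was 0.82 and Nrp2 0.29 against Veh, and Nrp2 0.37 and Angpt1 -0.28 against Reg.

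With a library left out, uncalled changes ranged across 0. In Reg against Veh they were -0.45 to 0.30 for Vegfa, -0.20 to 0.13 for Vegfc and -0.26 to 0.14 for Nrp2. Vegfa ran from -0.48 to 0.31 in Res against Veh and -0.38 to 0.36 in Res against Reg. In Prog against Reg, Angpt2 ran from -0.36 to 0.011 and Angptl4 from -0.12 to 0.62. In aPDL2_small against Prog_b2, Vegfa ran from -0.046 to 0.46, Vegfc from -0.043 to 0.29, Pgf from -0.0056 to 0.66 and Nrp1 from -0.95 to 0.086. In aPDL2_large against Prog_b2, Vegfa ran from -0.32 to 0.096, Vegfb from -0.32 to 0.19, Pgf from -0.64 to 0.028 and Angptl4 from -0.38 to 1.41. Nrp1 ran from -0.49 to 0.27 in aPDL2_large against aPDL2_small and -0.15 to 0.89 in Prog_b2 against Veh. Angpt2 ran from -0.033 to 0.16 in Prog_b2 against Veh, and Vegfb from -0.052 to 0.45 in Prog_b2 against Prog.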
